A study of Mus musculus with 6 samples.

Results

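The effect of lovastatin on liver RNA was compared in mice that ate the HFC diet, between 2 mice given lovastatin and 2 given vehicle, which are 4 of the 6 arrays in the series. A gene was described as separated when both lovastatin arrays lay above, or both below, both HFC arrays. Of 18262 features with a value on all 4 arrays (15881 named genes, the rest unnamed probes), 2485 lay above and 3126 below in the lovastatin mice. When 2 arrays are compared with 2, arrays in random order would separate a share of 0.333 of features, upward or downward. Both counts together are below that share, so separation alone was not taken as a response to lovastatin. The selection of separated genes used the compared values themselves, so the sizes given here describe those genes and were not tested a second time.

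All mice were C57BL/6 animals aged 7 weeks, with no transgene named in the labels, and all ate the HFC diet (titled high fat diet) for 12 days. From day 5 they were dosed by mouth once a day with vehicle or with lovastatin (30 mg/kg). Another group dosed with fenofibrate (100 mg/kg) is used here only for values set beside the others. Each array carried the liver RNA of 1 mouse against a pool of 6 mice fed standard chow, and the study describes 24 mice in 4 arms of 6, of which the others were not analysed here. Titles and source names of both lovastatin samples say lovastatin, whereas their treatment text names fenofibrate at 100 mg/kg; the titles were followed and the dose of 30 mg/kg comes from the design text. Each value is a log2 ratio of the mouse to the chow pool, so 0 is the pool's level. Whether mouse over pool is the direction, and whether the base is 2, are not stated in the files; both were taken as likely from the channel order and convention. The mouse was in the same dye on the HFC and lovastatin arrays, so the pool and a gene's dye effect drop out of lovastatin minus HFC, the difference used throughout.

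Lovastatin is a statin, a class of drugs that inhibit the mevalonate pathway, from which cells make cholesterol and the isoprenoid tails of small GTPases. When sterols in the endoplasmic reticulum run low, SREBP2 is released from its INSIG anchors and switches on the genes of cholesterol synthesis. Dietary cholesterol has the opposite effect on this feedback, and oxysterols made from it activate LXR, which drives efflux and bile acid genes.

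The arrays differed in spread. The SD over all probes was 0.419 and 0.57 on HFC replicates 1 and 2 and 0.42 on lovastatin replicate 2, but 1.1 on lovastatin replicate 1. Over features, which are not independent replicates, the 2 lovastatin arrays correlated at 0.186 and the 2 HFC arrays at 0.255, while HFC replicate 1 and lovastatin replicate 2 correlated at 0.497. On HFC replicate 2, 50.3% of the probes used lie in 4 blocks of spots displaced within their rows. As deposited, these blocks correlated between -0.03 and 0.0177 with the mean of HFC replicate 1 and the fenofibrate arrays. Once put back they correlated between 0.2572 and 0.2926, and the values below have them put back unless stated. Where values are given as deposited, a displaced gene carries the value of another spot on HFC replicate 2. No signal intensities were used here, so dim probes could not be set aside. Among 806 genes for odorant and vomeronasal receptors, a family made in sensory neurons, the SD was 1.24 on lovastatin replicate 1 and 0.323 to 0.566 on the other 3.

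No feature passed limma at an adjusted p of 0.05 (0 of 19487, a share of 0%), and the lowest adjusted p by limma was 0.829. At an unadjusted p below 0.05 there were 588 features, or 3.02%. The typical 95% interval of a single difference, before any adjustment, reached 0.89 on either side. After adjustment over all features even the differences of Mt1 (-3.11) and Mt2 (-3.65), described below, did not pass. Leaving out lovastatin replicate 2 gave 1976 features past the threshold, 1233 higher and 743 lower, in a fit that compares the wide array alone and assumes that it varies like the others. In the comparison of single genes, 2 against 2 arrays cannot give a two-sided exact permutation p below 0.333. The mice are separate animals per the labels, and the errors measure only the spread between arrays of a group, pooled over the 3 groups. With 1 array for each mouse, this spread holds both mouse and array variation, which cannot be told apart.

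Separated genes made up 13.6% of all features in the upward direction and 17.1% in the downward direction. Together these shares lie below 0.333, the share that arrays in random order would separate upward or downward. Every list below is read against the observed shares. The median distance between the nearest arrays of both groups, called the gap, was 0.13 for genes above and 0.14 for genes below. A gap over 0.5 was found for 133 features above (0.728%) and 284 below (1.56%). Close to the edge, 1211 features were separated by at most 0.05 and 1452 overlapped by at most 0.05. Lovastatin replicate 1 was the more distant lovastatin array for 77.6% of features above and 76.7% of those below. The odorant and vomeronasal receptor genes were separated upward in 9.8% and downward in 16.7%.

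The widest gap of all belonged to Mt1, and Mt2, its neighbour on the chromosome, was also among the 15 widest below. Metallothioneins are small cysteine-rich proteins that bind zinc and copper, and their genes are switched on by metals, glucocorticoids and oxidative stress. Mt1 was at -0.05 and 1.08 on HFC replicates 1 and 2 and at -2.28 and -2.91 on lovastatin replicates 1 and 2. Mt2 was at -1.04 and 1.56 in the HFC mice and at -2.57 and -4.20 in the lovastatin mice. Both lovastatin arrays thus lay far below the chow pool for both genes, while the HFC mice lay on either side of it and differed from each other by more for Mt2 than for Mt1. The difference was -3.11 (SE 0.455, 95% interval -4.25 to -1.97) for Mt1, which is 8.63-fold lower, and -3.65 (SE 1.0, 95% interval -6.15 to -1.14) for Mt2, which is 12.5-fold lower. Neither probe lies in a displaced block. The genes are similar in sequence, and whether the probes tell them apart was not tested. In the fenofibrate mice, which carry the opposite dye, Mt1 was at -1.27 and -1.43 and Mt2 at -1.75 and -2.72.

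The windows around the start sites of both metallothionein genes are shown because both genes lay low together. They are from RefSeq, build GRCm38.p6, each running from 250 bases before to 50 after the start on the plus strand, at chr8:94178839-94179138 for Mt1 and chr8:94172368-94172667 for Mt2. Capitals mark matches to the core of the metal response element, the site of the zinc-sensing factor MTF1, searched as TGCACNC and TGCGCNC on both strands; the forms differ by 1 letter and so never match at the same place.
Mt1: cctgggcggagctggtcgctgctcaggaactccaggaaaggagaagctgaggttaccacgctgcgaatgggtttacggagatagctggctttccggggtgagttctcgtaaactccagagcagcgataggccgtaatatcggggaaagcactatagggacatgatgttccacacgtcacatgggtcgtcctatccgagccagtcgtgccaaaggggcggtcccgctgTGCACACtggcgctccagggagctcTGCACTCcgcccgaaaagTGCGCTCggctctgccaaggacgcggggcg
Mt2: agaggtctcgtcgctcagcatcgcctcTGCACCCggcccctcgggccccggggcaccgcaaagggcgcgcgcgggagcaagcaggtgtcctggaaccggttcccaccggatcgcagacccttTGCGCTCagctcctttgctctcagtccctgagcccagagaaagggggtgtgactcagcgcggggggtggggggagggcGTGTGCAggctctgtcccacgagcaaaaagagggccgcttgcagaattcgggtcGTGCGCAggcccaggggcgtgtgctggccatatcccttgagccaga
The Mt1 window held 3 matches, all on the plus strand, and the Mt2 window held 4, of which 2 were on the minus strand. Of 32817 RefSeq windows of this length, 25.7% held at least 1 match, 1.97% at least 3 and 0.518% at least 4. A match is a run of letters and not a measured binding site.

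The other genes of widest gap below came from many functions. Gse1, a coiled-coil protein found with histone deacetylase complexes, was at -0.22 and 0.25 in the HFC mice and at -2.38 and -2.13 in the lovastatin mice (difference -2.27, SE 0.290). Tgfbr1, the type I receptor for TGF-beta, was at 0.61 and 0.47 against -0.84 and -0.97 (difference -1.45, SE 0.270). Ifit1bl2, of the interferon-induced IFIT family, was at 0.06 and -0.28 against -1.75 and -1.74 (difference -1.64, SE 0.260). In these 3 genes the arrays of each group lay close together, within 0.5 of each other. The homeobox gene Hoxa9 (-1.93), the actin-binding protein gene Avil (-1.82), the adenylyl cyclase gene Adcy2 (-1.88), the calcitonin receptor gene Calcr (-2.19) and the membrane metalloproteinase gene Mmp16 (-2.69) had differences of similar size. Mmp16 and Calcr also varied within groups, Mmp16 being at 2.11 and 0.52 in the HFC mice and at -2.05 and -0.71 in the lovastatin mice. The remaining names among the 15 were Btbd35f1, Pyroxd2, Tmprss12, Sertad4 and the vomeronasal receptor Vmn1r32, with differences from -1.97 to -1.46. On HFC replicate 2, 6 of the 15 come from put-back blocks. Angptl4, which codes for a secreted inhibitor of lipoprotein lipase and stood just outside the 15, was picked out after its values were seen: it was at 0.83 and 0.15 in the HFC mice, -1.03 and -1.64 in the lovastatin mice, and -1.46 and -0.98 in the fenofibrate mice.

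The genes of widest gap above also came from many functions. Ptgs2, the inducible cyclooxygenase that starts prostaglandin synthesis, was at -1.17 and -1.27 in the HFC mice and at 1.17 and 0.36 in the lovastatin mice (difference 1.99, SE 0.455). Ermap, an erythroid membrane protein of the butyrophilin family, was at -0.45 and -1.41 against 1.80 and 1.12 (difference 2.39, SE 0.422), the widest gap upward at 1.57. Both genes lay below the chow pool in the HFC mice and above it in the lovastatin mice. Mcm4, a subunit of the helicase that opens DNA for replication, was at 0.11 and 0.15 against 1.47 and 1.17 (difference 1.19, SE 0.251). Ckap2l, a spindle protein, was at 0.12 and -0.20 against 3.15 and 0.99, so the 2 lovastatin mice differed by more than lovastatin replicate 2 differed from either HFC mouse. Il12rb2, a subunit of the interleukin 12 receptor, had a difference of 1.52, the neuropeptide Y receptor gene Npy2r 1.43, the adhesion gene Hepacam 0.94, and the ubiquitin ligase gene Trim16 1.54. The other names were Vmn1r219, Asb15, Cypt12, 4933430I17Rik, Lelp1, AI593442 and Klhl14. Gaps were narrower on this side, 0.83 to 1.57 for the 15 genes above against 1.21 to 2.23 for the 15 below.

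**Figure D1:**
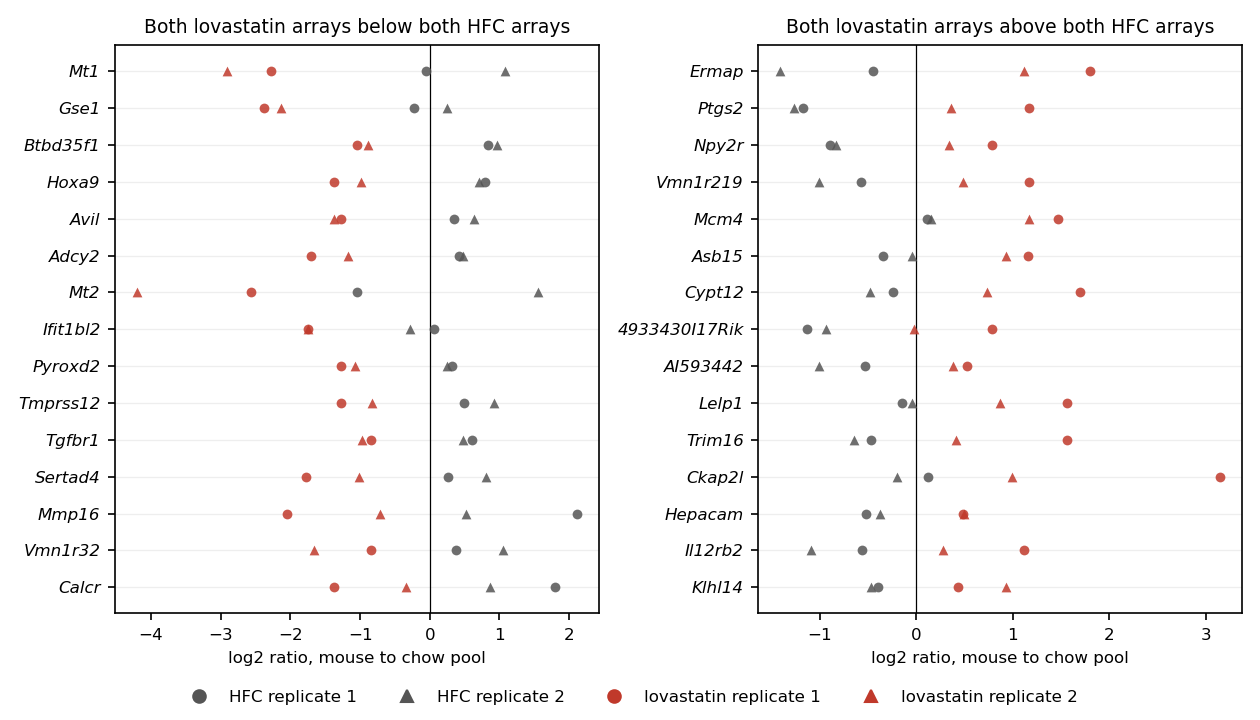
Log2 ratio of each mouse to the chow pool (horizontal axis) for the 15 named genes with the widest gap below (left) and above (right), with 1 point per array. Grey points are HFC mice and red points lovastatin mice. The horizontal scales of the panels differ. Mt1 and Mt2 reach -2.91 and -4.20 in the lovastatin mice, and Ckap2l reaches 3.15 on lovastatin replicate 1 alone.

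The cholesterol synthesis genes, the feedback targets of the pathway that lovastatin blocks, lay below the chow pool in most mice of both groups, and how many were separated depended on the scaling. In the mevalonate arm 1 of 5 measured genes was above and 0 below, with a median difference of 0.14 against -0.03 over all features. After quantile normalization 3 of the 5 (60%) were above, against 14.9% of all features under that setting, with a median of 0.87. With the arrays scaled to one SD the median was 0.95 and 0 were above, and with the displaced blocks as deposited the median was -0.46. It also ran from -0.12 without HFC replicate 1 to 0.30 without lovastatin replicate 1. From squalene to cholesterol 2 of 11 were above and 1 below, and the median difference was -0.00. After quantile normalization 5 of 11 (45.5%) were above and 0 below, with a median of 0.60. The median was 0.77 with the arrays scaled to one SD, where 0 genes were separated, and -0.86 as deposited. Idi1, which isomerises isopentenyl diphosphate, was at -4.48 and -4.27 in the HFC mice and at -4.83 and -4.08 in the lovastatin mice, so its arrays overlapped. Sqle, the squalene epoxidase, was at -3.48 and -3.06 against -3.54 and -3.20. The last enzyme, Dhcr7, was at -3.10 and -3.02 in both groups, with a difference of 0.00 (SE 0.322), and was named after its values were seen. For none of these 3 genes did the group means differ by as much as the mice within a group did. Other synthesis genes were nearer to the pool or differed widely within a group. The mevalonate kinase gene Mvk was at -1.18 and 0.02 in the HFC mice and at 0.36 and -1.60 in the lovastatin mice. The lanosterol synthase gene Lss was at -2.08 and 0.20 against -1.51 and -1.44, and the sterol isomerase gene Ebp lay between -0.97 and -0.64 in all 4. These 3 genes were added after their values were seen.

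The few separated synthesis genes differed by less than 0.5 between the groups. Fdps, which makes farnesyl diphosphate, was at -3.38 and -3.69 in the HFC mice and at -3.31 and -2.94 in the lovastatin mice (difference 0.41, SE 0.390). Hsd17b7, a reductase late in the pathway, was at -2.0 and -2.04 against -1.70 and -1.72 (difference 0.31, SE 0.263), and the methylsterol oxidase gene Msmo1 differed by 0.32, but as deposited both lay lower with lovastatin, by -0.86 and -1.74. Tm7sf2, a sterol reductase, lay the other way, at -1.69 and -1.48 against -2.15 and -1.93 (difference -0.46, SE 0.271), and turned to 0.03 with arrays scaled to one SD and 0.27 after quantile normalization. Hmgcs1, which codes for an early enzyme of the mevalonate arm, had no usable value on HFC replicate 2 and was at -3.67 on HFC replicate 1 and -3.28 and -3.43 in the lovastatin mice, and Pmvk overlapped. None of these intervals leaves 0 out.

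Among the sensors of sterol state, 3 of 8 genes were above and 3 below. Insig2, an anchor that holds SREBPs in the endoplasmic reticulum, was at 2.02 and 1.94 in the HFC mice and at 1.30 and 1.03 in the lovastatin mice (difference -0.82, SE 0.251), so it stayed above the chow pool in every mouse but less so with lovastatin. Lpin1, a phosphatidate phosphatase and regulator of lipid genes, was at -0.07 and 0.29 against -0.92 and -1.25 (difference -1.20, SE 0.279, or 2.29-fold lower). Npc1, which moves cholesterol out of lysosomes, was at 0.07 and 0.14 against -0.29 and -0.13, but the difference turned from -0.32 to 0.36 with values as deposited. Insig1, a sterol-responsive SREBP target, was at -2.95 and -1.57 against -2.39 and -1.45 and overlapped. Scarb1, the HDL receptor gene, Npc2 and Mylip were above by gaps of at most 0.08, with differences of 0.28, 0.28 and 0.18. For Srebf2 HFC replicate 2 had no usable value, and the difference rested on 3 arrays (0.43, SE 0.361). In the fenofibrate mice Insig2 was at 0.95 and 1.17 and Lpin1 at -0.77 and -1.0; both drug groups are set against the same 2 HFC arrays.

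Of 9 genes of sterol efflux and LXR, 3 lay above and 1 below, with a median difference of 0.10, which ran from 0.02 without HFC replicate 1 to 0.39 without lovastatin replicate 2. Srebf1, an LXR target that drives fatty acid synthesis, was at -0.45 and 0.02 in the HFC mice and at 0.61 and 0.71 in the lovastatin mice (difference 0.88, SE 0.383). Abca1, the pump that loads HDL, was at 0.13 and -0.23 against 0.82 and 0.49 (difference 0.70, SE 0.523). Pltp, the phospholipid transfer protein gene, differed by 0.47, a value that was -0.02 as deposited. Abcg5, a sterol exporter into bile and also an LXR target, overlapped at 1.26 and 1.33 against 1.45 and 1.07, and Abcb4 was below by a gap of 0.04. Fatty acid synthesis had 2 of 14 genes above and 2 below, with a median difference of -0.10 that was 0.12 after quantile normalization. Within it the lipogenic gene Fasn was at -2.01 and -0.35 in the HFC mice and at -2.21 and -0.74 in the lovastatin mice, and its difference of -0.29 changed sign under both rescalings. Me1, which supplies NADPH, differed by -0.67, and Acly, which supplies acetyl-CoA, by 0.43.

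Bile acid genes were separated downward in 6 of 18 (33.3%) and upward in 2, with a median difference of -0.11. Abcb11, the bile salt export pump gene, was at 1.58 and 1.64 in the HFC mice and at 0.57 and 1.10 in the lovastatin mice (difference -0.77, SE 0.283). Cyp7a1, which starts the classical route from cholesterol to bile acids and limits its rate, was at -1.67 and -1.40 against -1.96 and -2.16, with a difference of -0.53 (SE 0.30) that became 0.16 after quantile normalization. Nr0b2, the repressor SHP that bile acids induce through FXR, was at 0.98 and 1.29 against 0.88 and 0.74, and its difference of -0.33 was 0.79 as deposited. The uptake carrier gene Slco1a4 differed by -0.75. Cyp8b1, which sets the share of cholic acid, overlapped at -2.79 and -2.58 against -3.18 and -2.42. Hsd3b7 lay above by 0.40, a difference that was -0.72 as deposited. After quantile normalization the list stood at 3 above and 3 below, and as deposited at 1 above and 4 below of 20.

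**Figure D2:**
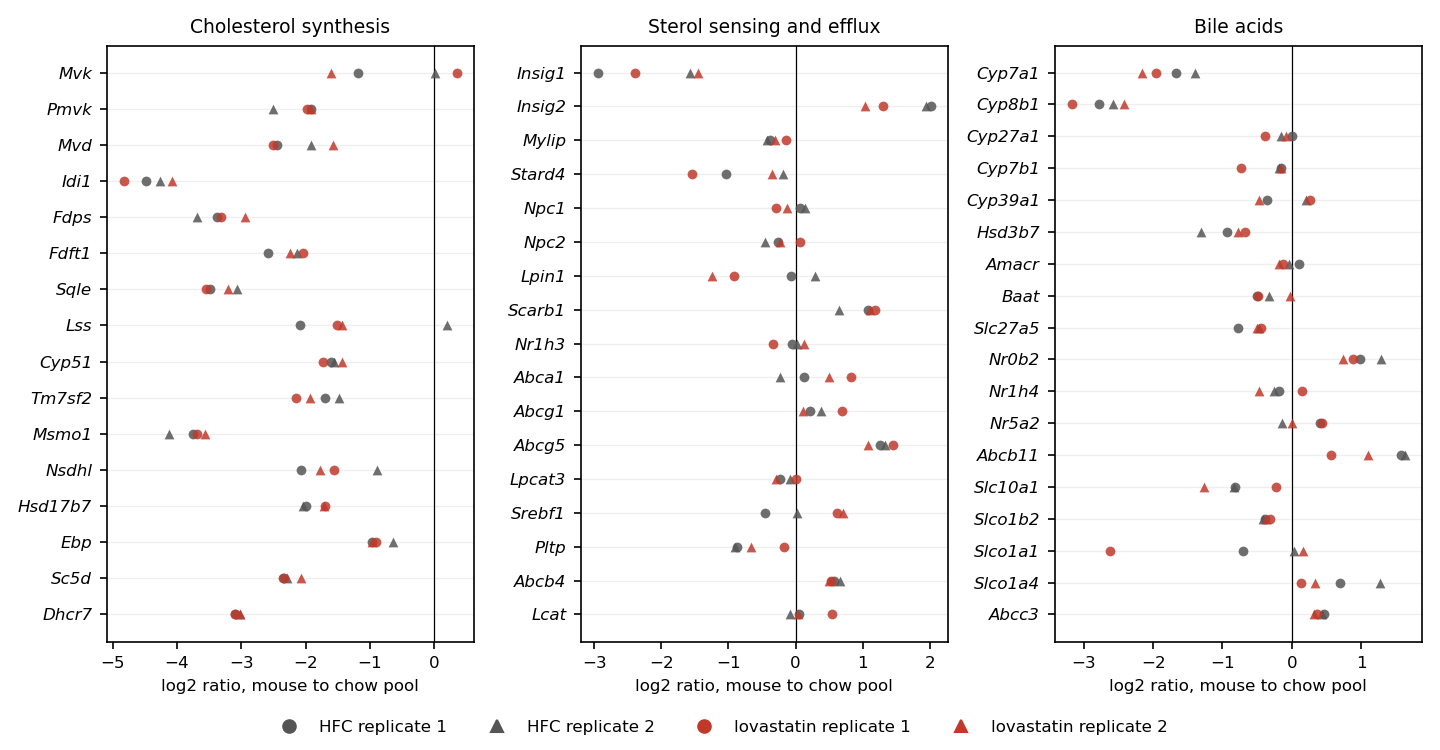
Log2 ratio of each mouse to the chow pool for genes of cholesterol synthesis, of sterol sensing and efflux, and of bile acids measured on all 4 arrays, with 1 point per array, grey for HFC and red for lovastatin. The horizontal scales of the panels differ. Synthesis genes such as Idi1, Sqle and Dhcr7 lie at or below -3.02 in every mouse with grey and red points intermixed, whereas Insig2, Lpin1 and Abcb11 have both red points left of both grey ones.

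The list with the largest share of separated genes in one direction among the metabolic lists was that of xenobiotic cytochromes P450 and transferases. It holds mostly enzymes with which liver oxidises and conjugates drugs and foreign compounds. Of 24 measured genes, 13 (54.2%) lay below and 2 (8.33%) above, with a median difference of -0.60 against -0.03 over all features. The count below was 10 of 24 (41.7%) after quantile normalization or with arrays scaled to one SD, 9 of 25 (36%) as deposited, and 7 of 10 (70%) with the displaced blocks left out. The median was -0.34 without lovastatin replicate 1, the array of widest spread, and -0.36 as deposited. These genes share regulators and some are close paralogs, so that signals of one family may not be independent. Lovastatin replicate 1 was the lower of the 2 lovastatin arrays for 12 of the 13 genes.

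Nr1i2, which codes for the xenobiotic receptor PXR and not for an enzyme, is counted among the 13. It was at 1.16 and 1.41 in the HFC mice and at 0.22 and 0.41 in the lovastatin mice (difference -0.97, SE 0.246, or 1.96-fold lower). Of the enzymes that PXR is known to induce, Cyp3a11 was at 2.33 and 1.71 against 0.58 and 1.48 (difference -0.99, SE 0.414). Cyp3a25 was at 2.13 and 1.92 against 1.16 and 1.22 (difference -0.83, SE 0.290), and Cyp2c55 at 3.13 and 3.00 against 1.46 and 2.32, where the difference of -1.18 was 0.49 as deposited. All of these genes were above the chow pool in all 4 mice and nearer to it with lovastatin. The carboxylesterase gene Ces2a was at 2.62 and 2.53 against 0.44 and 1.69 (difference -1.51, SE 0.457, or 2.85-fold lower). The glutathione transferase gene Gstm2 was at 1.72 and 1.58 against -0.46 and 0.78 (difference -1.49, SE 0.444), and its relatives Gstm1 and Gstm3 differed by -1.05 and -1.16, the latter being 1.25 as deposited. Cyp2c38, Cyp2c39, Cyp3a41a, Gstt1 and Sult1d1 completed the 13, with differences from -0.82 to -0.36. Not every enzyme of the list followed, and 9 genes overlapped. Among them Cyp3a13 was at 0.25 and 0.27 in the HFC mice against 0.53 and 0.19 in the lovastatin mice (difference 0.10). Gsta1 was at 1.29 and 0.95 against 0.29 and 1.41 (difference -0.27).

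Genes known to respond to the related receptor CAR were not a list of their own, and several of the 13 genes that lay below are known to respond to it as well as to PXR. Nr1i3, which codes for CAR, overlapped at -0.03 and -0.24 against 0.11 and -0.35. Cyp2b10, the classical CAR target, overlapped at -0.22 and -1.0 against -0.41 and -0.19, and Cyp2b9 lay above by a gap of 0.04. Cyp2c29, another gene that CAR induces, overlapped at 0.56 and -0.07 against -0.78 and -0.04 (difference -0.66, SE 0.457). Cyp1a2, a target of the aryl hydrocarbon receptor, overlapped with a difference of -0.00 (SE 0.379), and Cyp2c37 lay above by 0.20. In the fenofibrate mice Nr1i2 was at 0.79 and 0.72, below both HFC mice and above both lovastatin mice, and Cyp3a11 was at 1.42 and 1.76. The genes Nr1i3, Cyp1a2, Cyp2c29, Cyp3a13, Gsta1 and those that completed the 13 fall outside the naming rule and were added after their values were seen.

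**Figure D3:**
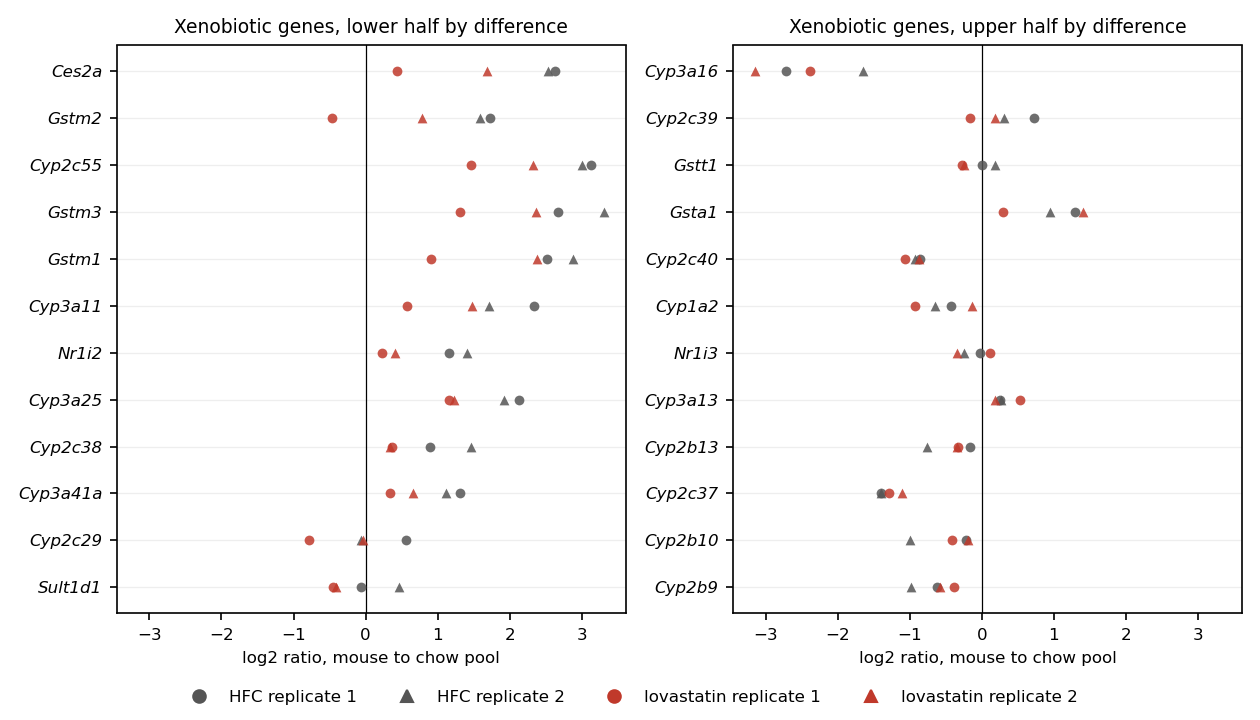
Log2 ratio of each mouse to the chow pool for the 24 measured genes of the xenobiotic list, ordered by lovastatin minus HFC and divided over the panels, with 1 point per array. In the left panel grey HFC points lie right of red lovastatin points for most genes, with Ces2a between 2.53 and 2.62 in HFC mice and at 0.44 and 1.69 in lovastatin mice. In the right panel the colours mostly mix.

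The PPARA targets of fatty acid oxidation, known to respond to fibrates and fasting, lay above in 5 of 21 (23.8%) and below in 1, with a median difference of 0.07 that was 0.01 after quantile normalization, where 2 lay above. It was 0.32 without HFC replicate 1 and -0.03 without HFC replicate 2. The Cyp4a genes for fatty acid omega-hydroxylases led this group. Cyp4a14 was at 1.28 and 0.58 in the HFC mice and at 2.29 and 1.94 in the lovastatin mice (difference 1.19, SE 0.354, or 2.27-fold higher), and at 2.98 and 2.54 in the fenofibrate mice. Cyp4a31 was at 0.59 and 0.55 against 1.54 and 0.96 (difference 0.68, SE 0.294), with fenofibrate at 3.01 and 2.79. Cyp4a10 was at 0.49 and 0.55 against 1.01 and 0.58, a gap of 0.03, with fenofibrate at 2.15 and 1.70. The acyl-CoA dehydrogenase genes Acadm and Acadl lay above by gaps of 0.03 and 0.04, with differences of 0.33 and 0.08, and the intestinal fatty acid binding protein gene Fabp2 lay below by a gap of 0.11 (difference -0.28). Among the targets whose arrays overlapped, Acot1 was at 2.48 and 1.48 against 1.89 and 1.63, while fenofibrate mice were at 3.76 and 4.05, and Vnn1 was at 0.26 and -0.63 against 0.09 and 0.16, with fenofibrate at 1.96 and 2.31. On the 3 Cyp4a genes, Acot1 and Vnn1, both samples titled lovastatin lay below both titled fenofibrate, although the treatment text names fenofibrate for all 4, and the dye also differs. Not every target of the list did so: for others the drug groups overlapped or lay the other way. Acadm, Acot1 and Vnn1 were added after their values were seen.

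Glucose and clock genes were separated downward only. Of 9 genes of glucose production and glycolysis, 3 were below and 0 above, with a median difference of -0.18. Quantile normalization left 2 of 9 below with a median of -0.03, and as deposited 1 of 10 (10%) was below, under the 16.4% of all features in that setting. Pck1, which codes for the rate-limiting enzyme of gluconeogenesis, was at 0.41 and 0.64 in the HFC mice and at -0.61 and -1.99 in the lovastatin mice (difference -1.82, SE 0.574, or 3.54-fold lower), and at -2.22 and -1.18 in the fenofibrate mice. Foxo1, a transcription factor that insulin restrains, differed by -0.55, and its partner Ppargc1a by -0.39. G6pc, the last step of glucose release, was not separated: it was at -0.19 on HFC replicate 1, but -1.34 on HFC replicate 2 against -1.34 and -1.32 in the lovastatin mice. With the displaced blocks left out only 2 genes of this list remained measured and 0 were separated.

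Of 14 circadian clock genes 5 (35.7%) were below and 0 above, with a median difference of -0.31, and the count was the same after quantile normalization or scaling to one SD but 3 of 15 as deposited. Npas2, a partner of BMAL1 in the activating limb, was at 0.26 and 1.37 in the HFC mice and at -1.20 and -0.55 in the lovastatin mice (difference -1.69, SE 0.575). Cry2, a repressor, was at 0.65 and 0.47 against -1.10 and -0.26 (difference -1.24, SE 0.356), and the repressor Nr1d2 was at -0.26 and 0.49 against -0.78 and -0.77. Arntl, which codes for BMAL1, differed by -0.40 and Per1 by -0.69. The output gene Dbp and the repressor gene Nr1d1, which peak at set hours of the day, overlapped, Nr1d1 being at 1.09 on lovastatin replicate 1 and -0.34 on replicate 2. The hour at which each liver was taken is not given in the sources used here, and its part in these values was not tested. Per1, Dbp, Nr1d1, G6pc and the other overlapping genes were added after their values were seen.

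**Figure D4:**
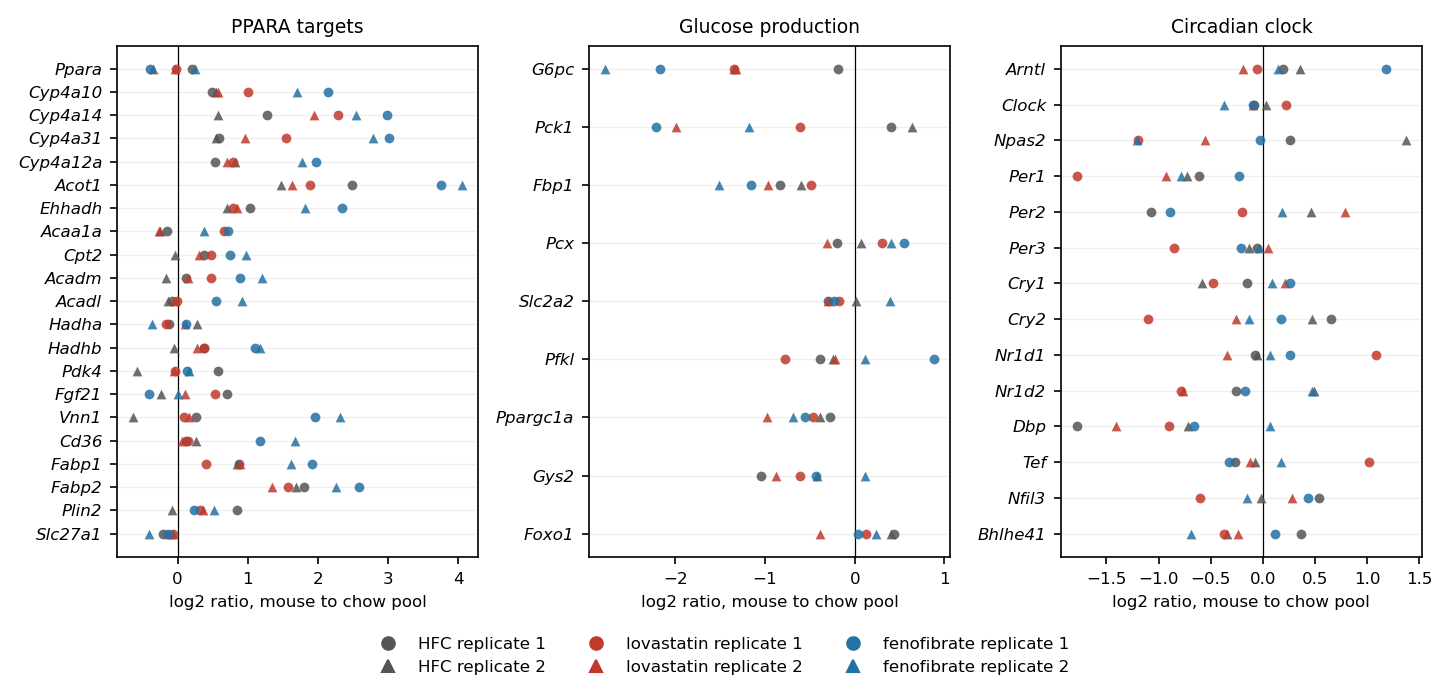
Log2 ratio of each mouse to the chow pool for PPARA targets, genes of glucose production and clock genes, with 1 point per array in HFC (grey), lovastatin (red) and fenofibrate mice (blue, opposite dye). The horizontal scales of the panels differ. Cyp4a14 lies at 0.58 and 1.28 in HFC, 1.94 and 2.29 in lovastatin and 2.54 and 2.98 in fenofibrate mice, and Pck1 is above 0 only in the HFC mice.

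Genes of prenylation and small GTPases, the other arm of mevalonate use, were listed together with 3 KLF transcription factor genes, and this list was above in 5 of 20 (25%) and below in 1, with a median difference of 0.11. Without the KLF genes, a split made after the values were seen, it was above in 3 of 17 (17.6%) and below in 1, with a median of 0.07. Klf2, a transcription factor that statins are known to induce in endothelium, was at -0.89 and -0.98 in the HFC mice and at -0.22 and -0.47 in the lovastatin mice (difference 0.59, SE 0.241), and its relative Klf4 was at -0.45 and -0.43 against 0.11 and -0.13 (difference 0.43, SE 0.242). Both remained below the chow pool or close to it. The transferase subunit genes Fnta and Pggt1b, whose enzymes attach farnesyl and geranylgeranyl groups, lay above by 0.31 and 1.06, the latter reaching 2.01 on lovastatin replicate 1 and 0.38 on replicate 2. Rhob, a GTPase gene known to be statin-responsive in cultured cells, overlapped at 0.63 and 0.22 against 1.79 and 0.49. The GTPase gene Rhoc lay above and the transferase subunit gene Rabggta below, each by a gap of 0.02.

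The stress lists were small. Heat shock genes lay above in 3 of 7 (42.9%) and below in 0, with a median difference of 0.57, but in 1 of 7 after quantile normalization or scaling to one SD. The median was 0.09 without lovastatin replicate 2 and 0.89 without HFC replicate 2. Hspa1a, an inducible chaperone gene, was at 0.57 and 0.91 in the HFC mice and at 1.86 and 1.14 in the lovastatin mice, and Hspb1 at 0.52 and 0.41 against 0.88 and 1.02. Genes of unfolded protein and amino acid stress were mixed, with 3 of 13 above and 3 below. In that group Atf4 was at 0.00 and 0.03 against 1.46 and 0.31, whereas Chac1, which degrades glutathione, was at 0.32 and 0.01 against -0.62 and -1.47. NRF2 targets had 2 of 13 above and 4 below (1 below after quantile normalization, 2 with scaling to one SD), among them the NRF2 gene Nfe2l2 itself, above by 0.48. Immediate early genes had 0 of 10 above and 2 below (0 below after quantile normalization or scaling to one SD), Gadd45b being at 2.89 and 1.60 against 0.51 and 1.5 and Egr1 differing by -1.02, a value that was 1.57 as deposited.

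Acute phase genes were above in 4 of 15 and below in 2, with a median difference of 0.26, though 2 of 16 were above as deposited and the median was 0.01 without lovastatin replicate 1. Here the lovastatin mice differed from each other. Hp, which codes for haptoglobin, was at 0.71 and -0.09 in the HFC mice and at 1.96 and 0.86 in the lovastatin mice. Saa1, the main serum amyloid A gene, was at -0.21 and -0.33 in the HFC mice and at 1.78 on lovastatin replicate 1 but -0.23 on lovastatin replicate 2, and Saa2 and Saa3 were likewise high only there, at 1.71 and 1.73. These genes, added after their values were seen, are not among the separated ones. Interferon genes had 3 of 14 above and 2 below. Mx1 was at -0.14 and -0.25 in the HFC mice against 1.10 and 0.21 in the lovastatin mice.

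The cell cycle list, which holds neither Mcm4 nor Ckap2l, had 3 of 15 genes above and 2 below, with a median difference of -0.18. The lovastatin mice stood apart in this list. Without replicate 1 the median was 0.32, with 10 of 15 genes (66.7%) above both HFC mice, against 27.5% of all features in that setting. Without replicate 2 the median was -0.63, with 11 of 15 (73.3%) below, against 41.8% of all features. Cdk1, the mitotic kinase gene, was at 0.52 and 0.07 in the HFC mice and at 1.76 and 0.93 in the lovastatin mice (difference 1.05, SE 0.409). Rrm2, a subunit of ribonucleotide reductase, was at 0.87 and 0.98 against -0.66 and 0.47, and the cell cycle inhibitor gene Cdkn1a at 2.20 and 1.31 against 0.48 and 1.05. Top2a, a topoisomerase gene named after its values were seen, was at -1.31 on lovastatin replicate 1 and 1.47 on replicate 2. Urea cycle genes had 1 of 15 above and 4 below, growth hormone regulated genes 3 of 10 above and 0 below, respiratory chain genes 0 of 14 above and 3 below, and cytosolic ribosomal protein genes 4 of 16 above and 1 below. Their median differences, in that order, were -0.03, 0.09, -0.07 and 0.08. After quantile normalization or scaling to one SD, 2 urea cycle genes were below and 2 ribosomal protein genes above, and the medians changed sign, to 0.18 for the urea cycle and to -0.04 and -0.08 for the ribosomal proteins.

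**Figure D5:**
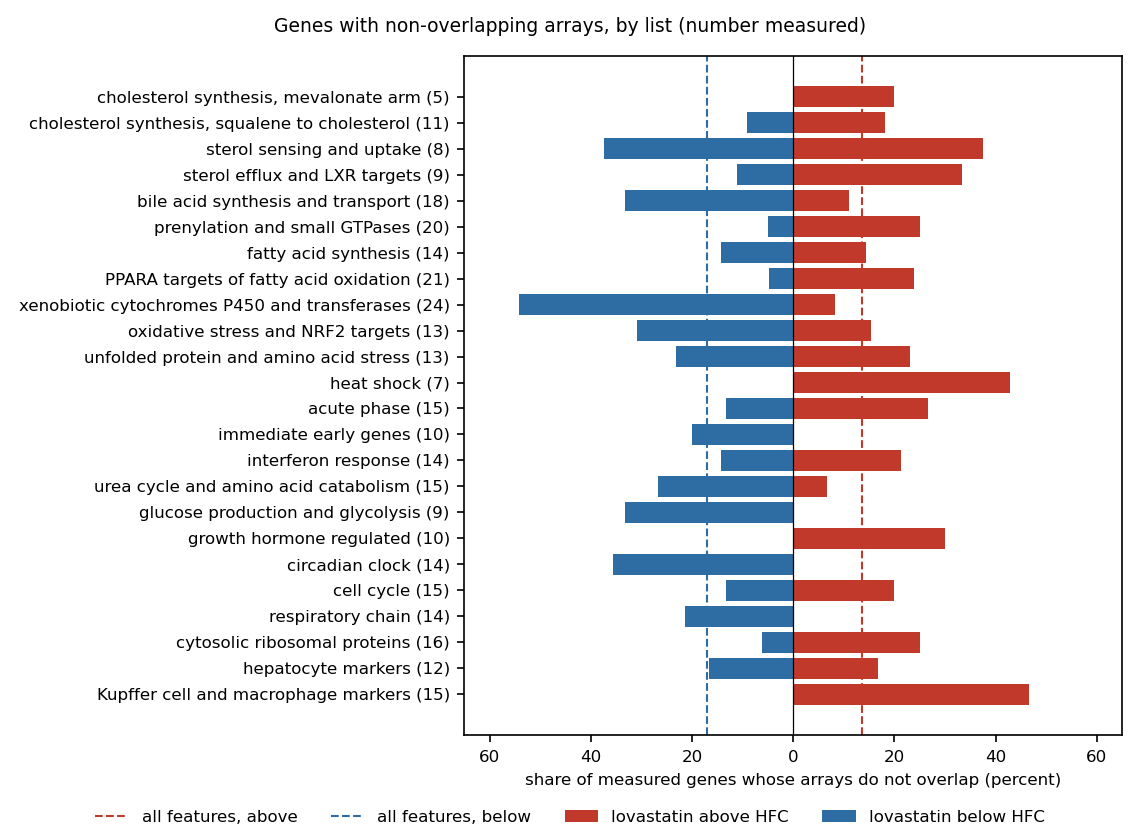
Share of the measured genes of a list (number in brackets) with both lovastatin arrays above (red, to the right) or below (blue, to the left) both HFC arrays, in percent. Of the cell type marker lists, only the hepatocyte and Kupffer cell lists are drawn. Among those not drawn, adipocyte markers are 42.9% above on 7 genes and erythroid markers 50% below on 4. Dashed lines mark the shares over all features, 13.6% above and 17.1% below. The xenobiotic list reaches 54.2% below and the Kupffer cell list 46.7% above, on 24 and 15 genes.

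Hepatocyte markers had array medians below the chow pool, which is itself liver, in every mouse. These medians were -0.50 and -0.27 in the HFC mice and -0.45 and -0.57 in the lovastatin mice. Of 12 genes, 2 were separated upward and 2 downward with lovastatin. A ratio to a liver pool cannot show how much of a marker is present, so the labelled tissue could be checked only relative to that pool. Alb, which codes for albumin, was at -0.47 and -0.15 against -1.36 and -0.64. Kupffer cell and macrophage markers lay above in 7 of 15 (46.7%) and below in 0, with array medians of 0.07 and -0.15 in the HFC mice and 0.12 and 0.19 in the lovastatin mice. The median difference was 0.19, against -0.03 over all features, and 5 of 15 were above after quantile normalization or scaling to one SD. The median was 0.10 without lovastatin replicate 2 and 0.38 without HFC replicate 1. Cd68, a lysosomal macrophage protein gene, was at -0.25 and -0.17 against 0.69 and 0.01, and C1qa, of the complement C1q complex, at -0.25 and -0.33 against 0.07 and 0.03. The genes C1qb and C1qc of the same complex overlapped, with differences of -0.10 and 0.17. Of the 15 markers 8 overlapped, and 3 had a lower mean with lovastatin. In whole liver, more cells of a type and more RNA per cell cannot be told apart. The part of the Kupffer marker shift in the inflammatory genes above was not tested.

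Of the other cell types, neutrophil markers had 2 of 9 above and 0 below, adipocyte markers 3 of 7 above and 0 below, lymphocyte markers 1 of 14 above and 4 below, and erythroid markers 0 of 4 above and 2 below. Ngp, a neutrophil granule gene, was at -0.76 and -0.34 in the HFC mice against 1.14 and 0.16 in the lovastatin mice. The neutrophil markers did not move together: 5 of the 9 had a higher and 4 a lower mean with lovastatin, with differences from -2.12 to 1.20. Endothelial markers had 2 of 11 above and 2 below, stellate cell and matrix markers 1 of 12 above and 1 below, cholangiocyte markers 1 of 8 above and 2 below, and pancreatic acinar markers 0 of 10 above and 1 below. Ermap, though an erythroid protein, lay above where the erythroid markers Alas2 and Slc4a1 lay below, by gaps of 0.03 and 0.08.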

How the data were processed

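Liver RNA of single mice was hybridised on 2-colour arrays against a pool of chow-fed mice, 2 arrays per group. The authors deposited a single processed value for each spot of an array, taken here as a log2 ratio. How they scanned, background-corrected and normalized the arrays is not given in the sources used here. Precision is limited by having 2 arrays a group.

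Of 22575 spots, 726 empty ones and 561 repeated ones without a gene were left out, and 470 repeated spots with a gene, which hold averaged values, were taken as 47 probes, giving 20865 probes. Platform annotation gave 1 symbol for 18235 of these; the others stayed unnamed (2630 probes). By Entrez number 18445 of 18658 probes with 1 symbol in the annotation matched RefSeq's gene table, which updated 0 symbols. Genes with several probes (1207) were given their mean, leaving 19517 features and 16887 named genes. On HFC replicate 2 the displaced blocks were rotated back within their rows. Repeated and empty spots there were taken to be in their right places, and at which step the shift arose was not tested. On that array 838 probes whose source held an averaged or empty value were set missing.

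Groups came from the sample titles. Limma 3.58.1 (statmod 1.5.0, R 4.3.3) was fitted to all 6 arrays (3 residual degrees of freedom, prior 2.46), with lovastatin minus HFC as contrast, Benjamini-Hochberg adjustment over all features and a threshold of 0.05. All SEs, intervals (95%) and differences come from this fit, and a fold is 2 raised to the size of the difference. Named genes were the 15 with the widest gap each way, up to 4 separated genes of widest gap from each of 32 lists, and 22 fixed genes where measured. Members and lists were chosen with earlier results of these data known. Genes outside this rule, chosen after their values were seen, were Acadm, Acot1, Angptl4, C1qb, C1qc, Cyp1a2, Cyp2b9, Cyp2c29, Cyp2c37, Cyp2c38, Cyp2c39, Cyp2c55, Cyp3a13, Cyp3a41a, Dbp, Dhcr7, Ebp, G6pc, Gsta1, Gstm1, Gstm3, Gstt1, Lss, Mvk, Npc2, Nr0b2, Nr1d1, Nr1i3, Per1, Rabggta, Rhoc, Saa1, Saa2, Saa3, Scarb1, Sult1d1, Top2a and Vnn1.

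Alternatives changed the treatment of the displaced blocks, centring, spread, array weights, probe averaging, the filter, the prior, the replicate block and each array in turn. Replicate numbers were treated as names only. Over features, the deviations of HFC and lovastatin arrays of the same number correlated at -0.015, a value that cannot show whether the numbers pair arrays. Tables and figures were made with Python 3.11.15, numpy 2.4.6, pandas 2.3.3 and matplotlib 3.10.9.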

Additional observations from a re-analysis of the deposited data

How the results depend on the processing

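The count of features past the threshold by limma was 0 under every alternative tried except without lovastatin replicate 2, so leaving out 1 array gave 0 to 1976; 32 named genes passed there only. The replicate block, which uses numbers not known to pair these mice, also gave 0 (826 features at an unadjusted p below 0.05) and changed no call. Array weights came out equal within each group, at 0.492 for both lovastatin arrays. They therefore did not weigh the wide lovastatin replicate 1 below its partner. With the displaced blocks left out, 1256 features lay above and 1766 below, of 9748 measured on all 4 arrays. Leaving out 1 array leaves fewer values to separate, and gave 5136 to 6933 features above and 5421 to 7644 below. The other alternatives kept both counts within 1.5 times, median centring giving 2798 above and 2817 below.

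Signs were followed for 131 named genes, not including C1qb, C1qc, Cyp3a13 and Gsta1. Of these 131, 97 kept the sign of their difference in all alternatives that could be computed. The other 34 did not in at least 1. As deposited, a displaced gene carries the value of another spot on HFC replicate 2. With the blocks left out, a gene with only displaced spots has no value on HFC replicate 2. Its difference then rests on HFC replicate 1 alone, as it does without HFC replicate 2. For the remaining alternatives the cause was not tested. As deposited, the sign turned for Cyp2b9 (-0.17), Cyp2c37 (-0.45), Cyp2c55 (0.49), Dbp (-0.45), Egr1 (1.57), Gstm3 (1.25), Hmgcs1 (-1.09), Hsd17b7 (-0.86), Hsd3b7 (-0.72), Msmo1 (-1.74), Npc1 (0.36), Nr0b2 (0.79), Pltp (-0.02) and Srebf2 (-0.17), all in genes whose spots were displaced. With the blocks left out it turned for Cyp2b10 (-0.08), Fasn (0.54), Idi1 (0.03) and Lss (0.60). Quantile normalization turned Cyp7a1 (0.16), Cyp8b1 (0.60), Ebp (0.12), Fasn (0.27), Idi1 (0.25), Nr1i3 (-0.07), Sqle (0.41), Tm7sf2 (0.27) and Top2a (0.40). Scaling to one SD turned Cyp8b1 (0.76), Ebp (0.09), Fasn (0.48), Idi1 (1.22), Nr1i3 (-0.07), Sqle (0.85), Tm7sf2 (0.03) and Top2a (0.34). Without setting averaged sources missing, an alternative added after seeing the data, Srebf2 was at -0.01.

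Leaving out 1 array spread these genes across 0: Abcg5 (-0.23 to 0.15), Acot1 (-0.72 to 0.28), Cyp2b10 (-0.08 to 0.70), Cyp8b1 (-0.49 to 0.27), Dbp (-0.43 to 0.62), Ebp (-0.30 to 0.03), Fasn (-1.12 to 0.54), G6pc (-1.14 to 0.01), Idi1 (-0.46 to 0.29), Insig1 (-0.35 to 1.03), Lss (-1.68 to 0.60), Mvk (-1.02 to 0.94), Nr1d1 (-0.28 to 1.16), Nr1i3 (-0.21 to 0.24), Pmvk (-0.02 to 0.56), Saa3 (-0.03 to 1.64), Sqle (-0.31 to 0.11), Top2a (-1.57 to 1.21) and Vnn1 (-0.14 to 0.76).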
